A study of Homo sapiens with 6 samples.

Results

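Cytosolic ribosomal protein genes encode the proteins that, together with the ribosomal RNAs, build the large (RPL) and small (RPS) subunits of the ribosome that translates nuclear messenger RNA. They were taken by their symbols in the array's annotation: RPL or RPS followed by a number, with or without A, L, AL or X, or RPLP0 to RPLP2 or RPSA, without pseudogenes and without the kinases named RPS6K. Of 72 such symbols in the annotation, 56 stood alone on at least 1 probe set and are described here, 35 of the large and 21 of the small subunit, among 11963 genes in all. The other 16 symbols occurred only on probe sets that also name another gene, most often a small nucleolar RNA encoded in an intron of the ribosomal protein gene, and are RPL4, RPL5, RPL7A, RPL10, RPL13, RPL13A, RPL17, RPL21, RPL23, RPL28, RPL36A, RPS2, RPS3A, RPS13, RPS20 and RPS26. Of the 56 genes, 51 are the usual subunit proteins, called core here, and 5 have symbols ending in L and encode near copies of a core protein (RPL3L, RPL10L, RPL36AL, RPL39L and RPS27L).

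The group called dinaciclib held 3 samples of MDA-MB-231 cells, a human triple-negative breast cancer line, taken 12 h after the drug was added, with the replicate names F, 4 and 5. The group called baseline held 3 samples of the same line taken at 0 h, named E, 4 and 5. Dinaciclib is a small molecule inhibitor of several cyclin-dependent kinases, among them CDK9, which acts in transcription elongation by RNA polymerase II, and its solvent is given as DMSO. The labels name no dose and leave unsaid if DMSO was added to the baseline cells. No untreated sample of 12 h was analysed here, so drug, time in culture and solvent cannot be told apart. Nothing in the labels says that the samples were separate cultures, so p-values here measure a spread among samples that may be technical only. In such bulk RNA, fewer cells of a kind and less RNA per cell cannot be told apart.

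Ribosomal protein transcripts are among the most abundant messenger RNAs of growing cells and are known as long-lived. Most begin with a C followed by an unbroken run of C and T (U in the RNA), the 5′ terminal oligopyrimidine tract, through which the mTOR pathway controls their translation. Near copies arose by gene duplication or by reverse transcription of a core messenger RNA. Several of them are restricted to certain tissues, such as RPL3L to heart and skeletal muscle and RPL10L to testis.

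The tract can be looked for at the starts of these genes. RefSeq promoters (assembly GRCh38.p14) were found for 48 of the 56 genes, and RPL3L, RPL7, RPL8, RPL23A, RPL30, RPL37, RPL39L and RPS15A were not matched. The sequences below run 15 bases before and 15 bases after a RefSeq start, and capitals mark the run of C and T that begins with a C at the first transcribed base. They are shown for some of the genes described below, with and without a run, on the strand of the gene.
RPS23 (chr5:82278340-82278369, minus): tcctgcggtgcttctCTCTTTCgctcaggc
RPS6 (chr9:19380222-19380251, minus): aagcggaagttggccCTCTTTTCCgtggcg
RPL22 (chr1:6199581-6199610, minus): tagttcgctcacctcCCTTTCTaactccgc
RPL11, 1 of 2 listed starts (chr1:23691791-23691820, plus): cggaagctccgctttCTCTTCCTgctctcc
RPL36 (chr19:5690280-5690309, plus): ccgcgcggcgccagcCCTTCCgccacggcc
RPL38 (chr17:74203663-74203692, plus): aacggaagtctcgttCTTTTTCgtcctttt
RPL39 (chrX:119791616-119791645, minus): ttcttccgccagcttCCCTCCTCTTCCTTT
RPS27 (chr1:153990747-153990776, plus): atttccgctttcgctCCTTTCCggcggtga
RPL3 (chr22:39319609-39319638, minus): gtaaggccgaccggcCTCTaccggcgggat
RPL11, the other listed start (chr1:23691764-23691793, plus): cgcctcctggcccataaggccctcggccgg
RPS27L (chr15:63157463-63157492, minus): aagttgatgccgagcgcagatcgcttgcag
RPL36AL (chr14:49620612-49620641, minus): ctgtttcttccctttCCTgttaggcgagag
RPL10L (chr14:46651767-46651796, minus): caggcgtagttaagagagcgcattttgact
The first 8 windows, all of core genes, hold runs of at least 6 bases, and that of RPL39 fills its window. RPL3, also a core gene, has a run of 4 bases, and the other start of RPL11 has none. RPL36AL has a run of 3 bases, and RPS27L and RPL10L have no C at the first base. Taking as a match a C at the start followed by 4 bases that are each C or T, 33 of 45 core genes with a promoter (73.3%) matched at a listed start, 0 of 3 near copies did, and 6.77% of the 9563 tested genes with a promoter did. The motif CCGGAAG, on either strand within the 300 bases of the table, was found in 17 of the 45 core genes (37.8%) and in 17.8% of all genes. These are matches of letters and were not tested as sites. Core genes with the pyrimidine start had a median log2 change of 0.09 (n = 33) after dinaciclib, and core genes with another start one of 0.09 (n = 12).

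On the arrays, E and F were dimmer than the numbered samples of their group over the 1196 brightest genes, and the 18S ribosomal RNA control probe sets read 735 to 1753 in F and 479 to 974 in E, against 5162 to 9061 in the 4 numbered samples. The median gene lay lower after dinaciclib, at 5.98 to 6.22 log2 units against 6.55 to 6.86 at baseline. The deposited values were not brought to a common median, so scaling touches every value below. Of the markers of the line, VIM, CD44 and AXL were bright on all 6 arrays (3411 to 9649), while EGFR, listed with them, read 152 to 223 after dinaciclib and 554 to 1273 at baseline. Of the markers listed as dim in the line, ESR1, PGR and CDH1 were dim (0.434 to 33.6), but GATA3 read 263 to 401 and EPCAM 190 to 242. PTPRC, the pan-leukocyte gene, lay at 10.3 to 15.3.

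No core gene passed the test, and the 51 moved within a narrow band. Their log2 changes, dinaciclib minus baseline on the log2(intensity + 1) scale, ran from 0.02 (RPL29) to 0.23 (RPL22), with a median of 0.09 and an SD among genes of 0.05. By limma with the Benjamini-Hochberg adjustment over all rows tested, 0 of 51 core genes were called, also 0 at an unadjusted p under 0.05, where 20.0% of all genes were called (3.54% as raised and 16.4% as lowered) and 34.0% had an unadjusted p under 0.05. The band of core changes held 12.5% of all genes and 31.1% of the 1196 brightest. The median change over all genes was -0.26 and their SD 0.83.

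With the values as deposited, the intervals bound the changes that spread among the samples could hide. They do not cover the choice of scaling or a saturation of probe sets. The 95% interval of the log2 change lay within a 2-fold change either way for all 51 core genes. Its outermost bounds among them were -0.49 and 0.70. The same held for 3888 of the 11963 genes. With each array centred on its median, the core changes themselves ran from 0.47 to 0.69. The large subunit, with 31 core genes, and the small subunit, with 20, had the same median change of 0.09, and their ranges were 0.02 to 0.23 and 0.02 to 0.19. The plot of changes by gene shows this band. Of the near copies, RPL39L, RPL3L and RPL36AL lay below it, and RPL10L and RPS27L inside it.

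**Figure D1:**
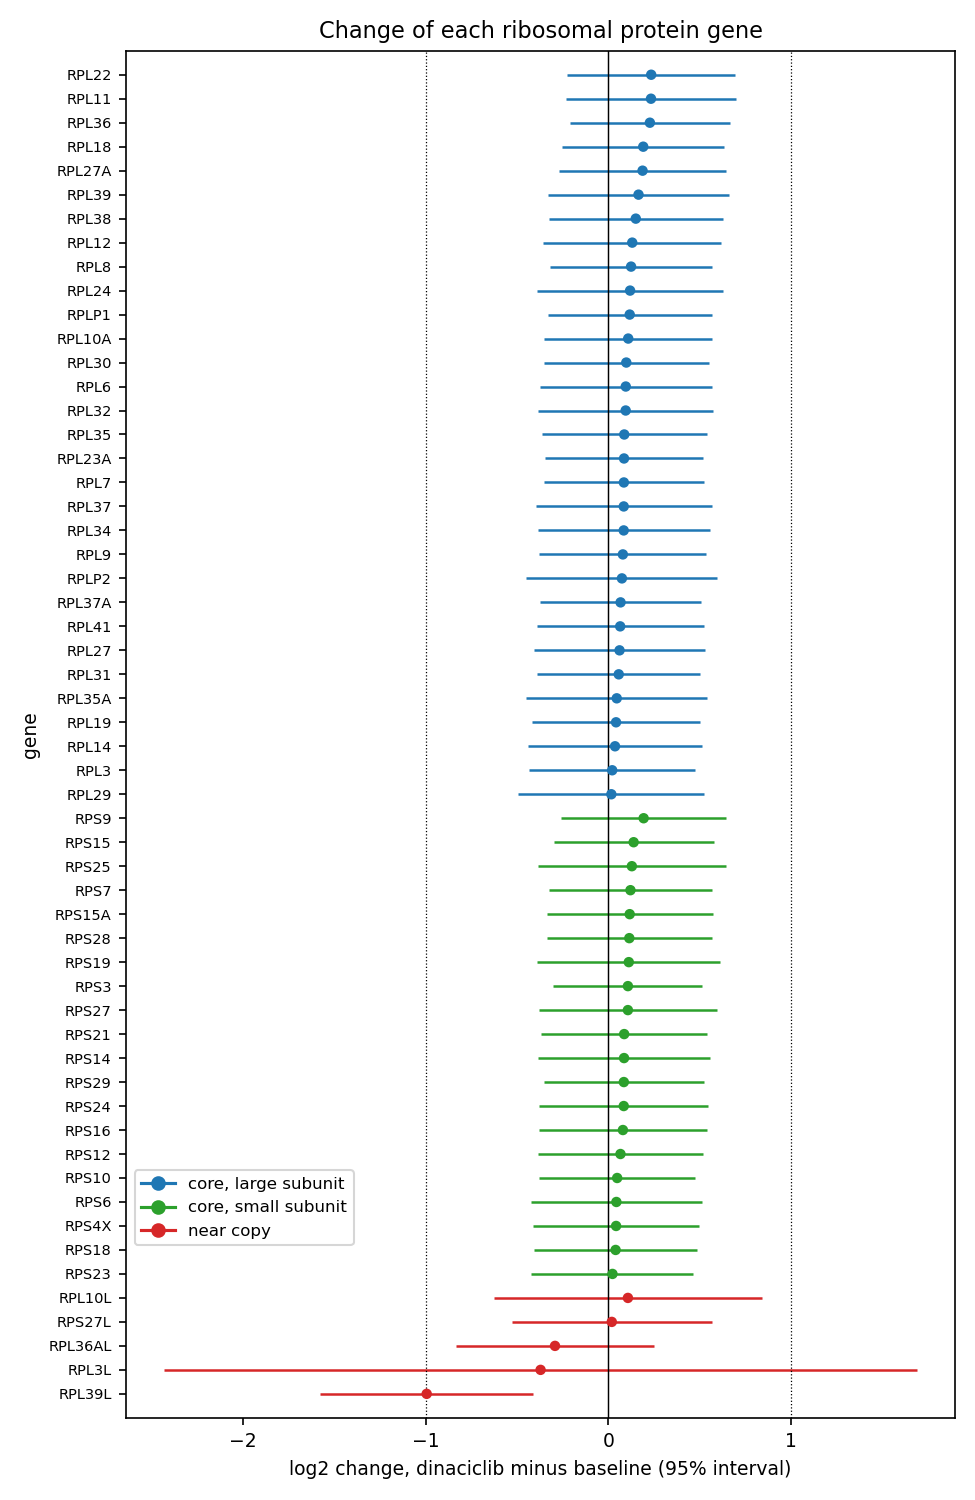
Log2 change of each of the 56 genes, dinaciclib minus baseline (points), with the 95% interval from limma (lines). Dotted lines mark a 2-fold change either way; all 51 core genes lie between 0.02 and 0.23, and RPL39L, a near copy, lies at -0.99.

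Most core probe sets are also among the brightest on these arrays, and the other genes among the 100 brightest changed little too. Of the 100 brightest genes, 44 were core ribosomal protein genes, and RPS23, a protein of the decoding centre, gave the highest intensity of the whole array in all 6 samples. The 56 others among the 100 brightest had a median log2 change of 0.09, with an SD of 0.13, a range of -0.25 to 0.44 and 0 calls (0 at an unadjusted p under 0.05). Among the 1196 brightest genes 9.70% were called, 5.60% as raised and 4.10% as lowered. Their changes had an SD of 0.47 and ran from -1.90 to 2.64. The part that brightness has in the narrow band was not tested. The plot of change against brightness shows how the scatter of all genes narrows to the right.

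**Figure D2:**
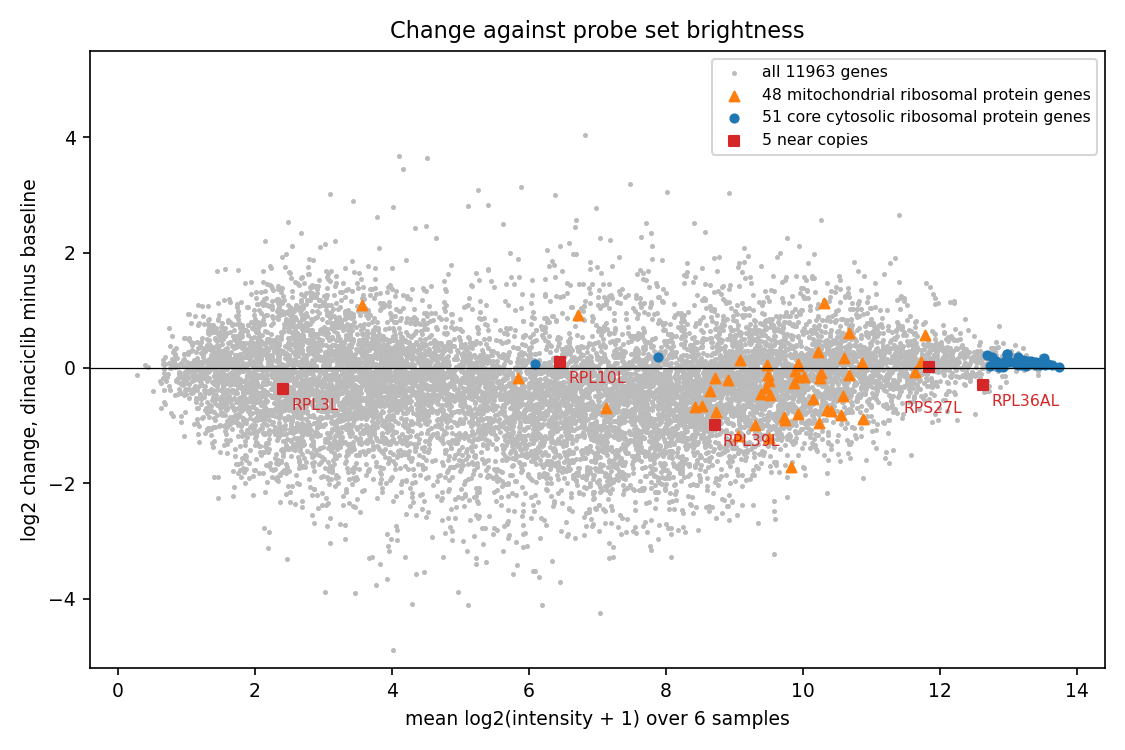
Log2 change, dinaciclib minus baseline, against mean log2(intensity + 1) over the 6 samples, 1 point a gene. All but 2 core genes sit at the bright end, where the scatter is narrower (SD 0.47 over the 1196 brightest genes, 0.83 over all). The 48 mitochondrial ribosomal protein genes spread from -1.72 to 1.13.

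Levels in single samples mostly moved together. RPS23 read 12741, 14256 and 14388 in dinaciclib F, 4 and 5, against 12014, 14219 and 14588 in baseline E, 4 and 5. The groups overlapped, and the letter samples were the lowest of each. RPS6, the small subunit protein phosphorylated by the S6 kinases, read 10104, 11551 and 11675 after dinaciclib, against 9215, 11493 and 11736 at baseline, with a log2 change of 0.04 (standard error 0.19). Its values overlapped in the same way.

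The highest changes among the 56 belonged to RPL22, RPL11, RPL36, RPS9 and RPL18, and none of them passed. RPL11, which with RPL5 and the 5S ribosomal RNA binds the p53 regulator MDM2, read 7874, 9398 and 9086 after dinaciclib, against 6486, 8210 and 7768 at baseline, a log2 change of 0.23 ± 0.19 (standard error; adjusted p = 0.479 by limma with Benjamini-Hochberg). Dinaciclib F lay below baseline 4, so the groups overlapped. RPL22, a large subunit protein known for a role in T cell development in mice, read 8505, 9450 and 8500 after dinaciclib, against 6498, 8442 and 7645 at baseline, a log2 change of 0.23 ± 0.19 (standard error; adjusted p = 0.468 by limma with Benjamini-Hochberg). It was the 1 core gene whose groups did not overlap, by a gap of 8500 against 8442, where 9.36% of all genes lay wholly higher after dinaciclib.

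RPL36 read 7271, 7583 and 6565 after dinaciclib, against 5899, 6723 and 5685 at baseline (log2 change 0.23, standard error 0.18). RPS9 read 7092, 7613 and 7730 after dinaciclib, against 5644, 7137 and 6931 at baseline (0.19, standard error 0.19). RPL18 read 9074, 10172 and 9725 after dinaciclib, against 7458, 9222 and 8770 at baseline (0.19, standard error 0.18). In RPL36, RPS9 and RPL18 baseline E was at or near the lowest value, and 1 dinaciclib sample lay below the highest baseline sample.

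At the other end of the core band were RPL29 and RPL3. RPL3, which lies close to the peptidyl transferase centre, read 6857, 8188 and 7707 after dinaciclib, against 6635, 8232 and 7579 at baseline, a log2 change of 0.02 with an interval from -0.43 to 0.48. RPL29 read 6917, 8478 and 8198 after dinaciclib, against 6412, 8850 and 8185 at baseline. For both genes the groups lay almost on top of each other.

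RPS3, a small subunit protein also known as a DNA repair endonuclease, read 8476, 8480 and 7839 after dinaciclib, against 7415, 8041 and 7560 at baseline, a log2 change of 0.11 with an interval from -0.30 to 0.52. RPL38, needed in mice for the translation of a subset of Hox transcripts, read 7717, 9227 and 8748 after dinaciclib, against 6573, 8210 and 8441 at baseline, a log2 change of 0.15 with an interval from -0.33 to 0.63. Both had overlapping groups. The next brightest probe sets after RPS23 were those of RPS10, at 12122, 13641 and 13422 after dinaciclib and 11557, 13204 and 13148 at baseline, and of RPL37A, at 11567, 12983 and 13098 after dinaciclib and 10668, 12897 and 12433 at baseline. Their log2 changes were 0.05 and 0.07, with overlapping groups.

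**Figure D3:**
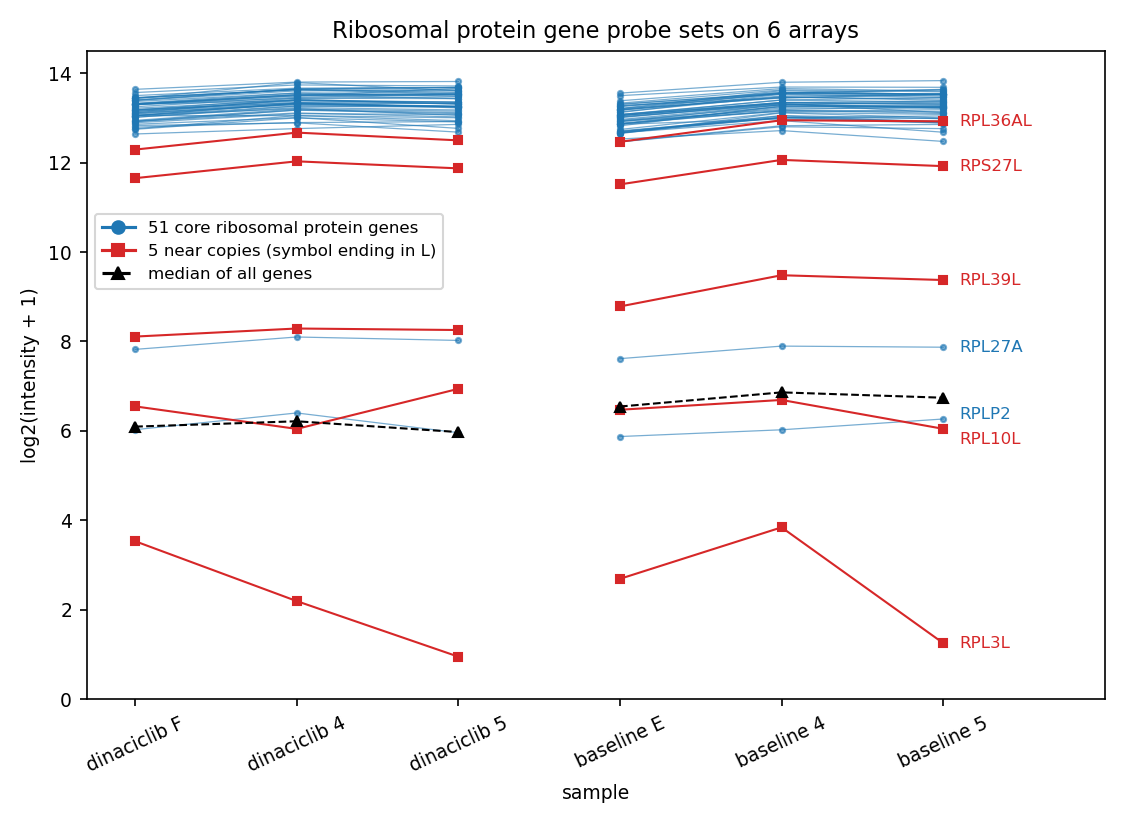
Log2(intensity + 1) of the chosen probe set of each gene in each sample, lines joining the samples of a group. Apart from the dimmer RPL27A and RPLP2 the core lines lie at intensities of 5644 to 14588, and most run nearly in parallel. RPL36, RPS3 and RPS28, among others, are lowest in dinaciclib 5, where the core median is lowest in F. The median over all 11963 genes (triangles) is 5.98 to 6.22 after dinaciclib and 6.55 to 6.86 at baseline.

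How far the core lines run in parallel was also measured. The within-group SD of a core gene had a median of 0.15 log2 units, and of 0.04 once the core median of each sample was subtracted. Any shift shared by a whole array gives such a drop, and no other genes were treated alike. The 56 others among the 100 brightest genes had a median within-group SD of 0.16 as deposited. The median core intensity was 9074, 10379 and 10183 in dinaciclib F, 4 and 5, against 8209, 10040 and 9836 in baseline E, 4 and 5. In F, core genes lay a median of 0.19 log2 units below the mean of dinaciclib 4 and 5 (49 of 51 below), and in E a median of 0.29 below the mean of baseline 4 and 5 (51 of 51 below). Over the 1196 brightest genes these gaps were 0.20 and 0.36. Whether the brightest probe sets were limited by saturation was not tested.

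Samples named with a letter and with a number were also compared on their own. Set against E, F was higher in 51 of 51 core genes, with a median difference of 0.16 and a range of 0.02 to 0.39, and with 1 sample a group this has no test. The median level of the 1196 brightest genes was also higher in F, at 11.45 log2 units against 11.25 in E. Over all genes the median was lower in F, at 6.10 against 6.55. Within the 4 numbered samples the median core change was 0.06, with 46 of 51 above 0. Without baseline E, the dimmest array for these genes, the median core change was -0.01 and 22 of 51 lay above 0. The sign of the small core change was thus lost without that 1 sample.

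Scaling also moved the size of the core change, and the direction for some core genes. With the values as deposited, 51 of 51 core changes were above 0. So were 47 of the 56 other genes among the 100 brightest, 761 of the 1196 brightest genes and 4181 of all 11963 genes. After quantile normalization 33 of 51 core changes were above 0, with a median of 0.01. After centring on 45 spiked control probe sets 30 of 51 were, with a median of 0.00. Quantile normalization gives each rank the same value on every array, and core genes hold 44 of the 100 brightest places. Changes near 0 are thus partly built in there, and RPS23, the brightest on every array, can have none. Its count and median therefore cannot decide the direction of the core change. Centring each array on its median moved the median over all genes to 0.19 and the core median to 0.54. It called 41 of the 56 genes as raised, 41 of them core (limma, Benjamini-Hochberg), where 27.2% of all genes were called, 16.3% as raised and 10.9% as lowered. Relative to the median of all genes the core median was higher by 0.35 as deposited and by 0.03 after quantile normalization, where the same limit holds. Both centrings shift all values of an array alike, so they cannot move this difference from 0.35. The plot by scaling sets core genes and all genes side by side.

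**Figure D4:**
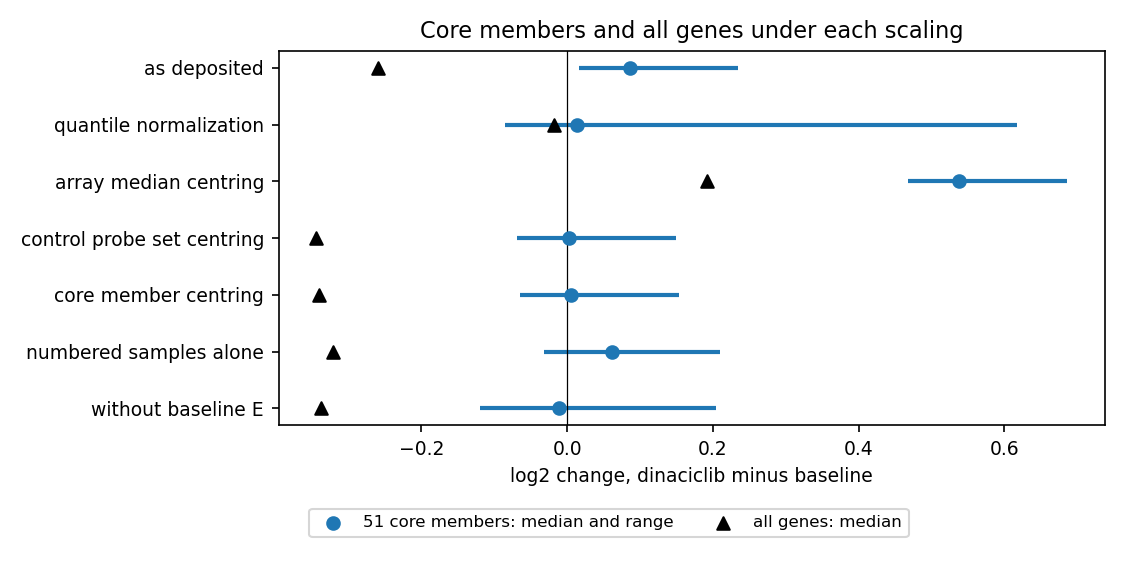
Median (circles) and range (lines) of the log2 changes of the 51 core genes, dinaciclib minus baseline, and the median over all genes (triangles), under 5 scalings and for 2 subsets of the samples. The core median is 0.09 as deposited, 0.54 under array median centring and -0.01 without baseline E.

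Summed over the 56 genes, the chosen probe sets made up 4.44%, 4.36% and 4.62% of the array's whole intensity in dinaciclib F, 4 and 5, against 4.24%, 4.00% and 4.21% in baseline E, 4 and 5. The means were 4.47% ± 0.14 after dinaciclib and 4.15% ± 0.13 at baseline (SD, n = 3 each), and the groups did not overlap. The difference of 0.32 percentage points had an exact two-sided permutation p of 0.1, the smallest that 3 against 3 can give, so no p under 0.05 was possible. Leaving out 1 sample at a time, the difference was 0.25 to 0.38, and without baseline 4 the groups no longer gave the smallest p (0.25, exact p = 0.2). This share does not depend on a scaling factor of the array, but it does depend on what happened to all other probe sets.

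RPL39L was the 1 gene of the 56 that passed the test, and it was lowered. It encodes a near copy of RPL39, a small protein of the large subunit's exit tunnel, and is known from testis and from some cancers. Its probe set read 275, 312 and 305 in dinaciclib F, 4 and 5, against 440, 714 and 663 in baseline E, 4 and 5. All 3 dinaciclib values lay below all 3 baseline values, as in 30.7% of all genes. The log2 level was 8.22 ± 0.10 after dinaciclib and 9.21 ± 0.38 at baseline (SD, n = 3 each), a log2 change of -0.99 ± 0.24 (standard error), with an interval from -1.58 to -0.41 and an adjusted p of 0.0351 by limma with Benjamini-Hochberg. One called gene of 56 is fewer than the 20.0% called among all genes.

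RPL39 itself, on its own probe set, read 11061, 14140 and 12458 after dinaciclib, against 9467, 12472 and 11701 at baseline, and did not pass (log2 change 0.17, standard error 0.21). The log2 ratio of RPL39L to RPL39 within each array, which no scaling factor can move, was -5.32, -5.50 and -5.35 after dinaciclib, against -4.43, -4.13 and -4.14 at baseline. The difference of -1.16 had an exact two-sided permutation p of 0.1, the smallest possible here. With arrays centred on the core median, a scaling chosen after seeing the data, RPL39L changed by -1.07 (standard error 0.16, limma, Benjamini-Hochberg adjusted p = 0.00688), where 27.9% of all genes were called, 4.68% as raised and 23.2% as lowered. The call as deposited did not survive leaving out baseline 4, baseline 5, dinaciclib F, dinaciclib 4 or dinaciclib 5, with changes of -1.03 to -0.86 and limma adjusted p of 0.0881 to 0.122, and it held without baseline E (-1.21, adjusted p = 0.0191). It was also lost under array median centring (-0.54, limma adjusted p = 0.0673).

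The other near copies did not pass. RPL36AL, a near copy of RPL36A, read 5009, 6516 and 5779 after dinaciclib, against 5650, 7893 and 7760 at baseline, a log2 change of -0.29 with an interval from -0.83 to 0.25. Its groups overlapped, and its sign turned under array median centring (0.16). Relative to the core median of each array it lay at -0.86, -0.67 and -0.82 after dinaciclib, against -0.54, -0.35 and -0.34 at baseline, groups that did not overlap (difference -0.37, exact two-sided permutation p = 0.1, the smallest possible; with arrays centred on the core median, limma adjusted p = 0.105). On that scale the median change over all genes was itself -0.34, so RPL36AL moved about as far as the median gene. The share of all genes lying wholly lower was not counted on that scale, and was 30.7% as deposited.

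RPS27L, a near copy of RPS27 known as a p53 target, read 3216, 4175 and 3743 after dinaciclib, against 2920, 4269 and 3876 at baseline, a log2 change of 0.02 with an interval from -0.53 to 0.57. RPS27, which carries the pyrimidine run shown above that RPS27L lacks, read 9731, 11282 and 11851 after dinaciclib, against 8575, 10795 and 11248 at baseline, a log2 change of 0.11 with an interval from -0.38 to 0.59. The RPS27L to RPS27 ratio differed by -0.09 on the log2 scale (exact two-sided permutation p = 0.4), with overlapping groups. RPL10L read 92.7, 65.1 and 122 after dinaciclib, against 87.9, 102 and 65.2 at baseline (log2 change 0.11, interval -0.62 to 0.84). RPL3L lay near the floor of the array in both groups, at 10.6, 3.58 and 0.937 after dinaciclib and 5.47, 13.4 and 1.39 at baseline, and its interval from -2.43 to 1.69 leaves its change unmeasured.

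Of the core genes, 49 had a chosen probe set among the 1196 brightest, with mean intensities of 6621 to 13701. The exceptions were RPLP2, an acidic stalk protein, and RPL27A. RPLP2 read 64.3, 83.6 and 61.3 after dinaciclib, against 57.7, 64.2 and 76.0 at baseline. RPL27A read 226, 273 and 259 after dinaciclib, against 195, 237 and 233 at baseline. For each of these genes the annotation has another probe set that also names a small nucleolar RNA and so was not used under the gene's name. After quantile normalization RPL27A passed as raised (0.62, limma, Benjamini-Hochberg adjusted p = 0.0206), where 22.3% of all genes were called, 8.89% as raised and 13.4% as lowered, and it did so too under array median centring.

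The 56 genes had 94 probe sets of their own, and 23 genes had more than 1. The 71 probe sets with a mean log2 level over that of an intensity of 1000 had log2 changes of -0.29 to 0.33, with an SD of 0.08 and 0 calls (limma, every probe set tested on its own). The 23 dimmer ones ran from -1.18 to 1.19, with an SD of 0.63 and 2 calls, RPL39L and a dim probe set of RPL37A, where 17.9% of all named probe sets were called (3.90% as raised and 14.0% as lowered). That RPL37A probe set had mean levels of 6.35 log2 units after dinaciclib and 7.51 at baseline, a change of -1.16 ± 0.21 (standard error; adjusted p = 0.0162 by limma with Benjamini-Hochberg). The bright RPL37A probe set changed by 0.07 and a further dim one by 0.40, neither of which passed, so the gene's probe sets disagreed.

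RPL31 disagreed likewise, with changes of 0.06 on its bright probe set and -0.76 and -0.61 on a pair of dim ones that did not pass. Of the 5 probe sets of RPL22, 4 lay between 0.23 and 0.33, and the other at 0.01. RPS6 had changes of 0.04, 0.08 and 0.08 on its bright probe sets and 0.91 on one near the floor. In the core, 13 chosen probe sets carry the ending _x_at, which marks probes shared with other sequences, 27 the ending _s_at, shared among transcripts, and 11 neither. Ribosomal protein genes have many processed pseudogenes of near-identical sequence, so these values may include other loci. The median change was 0.06 for the 13 and 0.10 for the other 38.

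**Figure D5:**
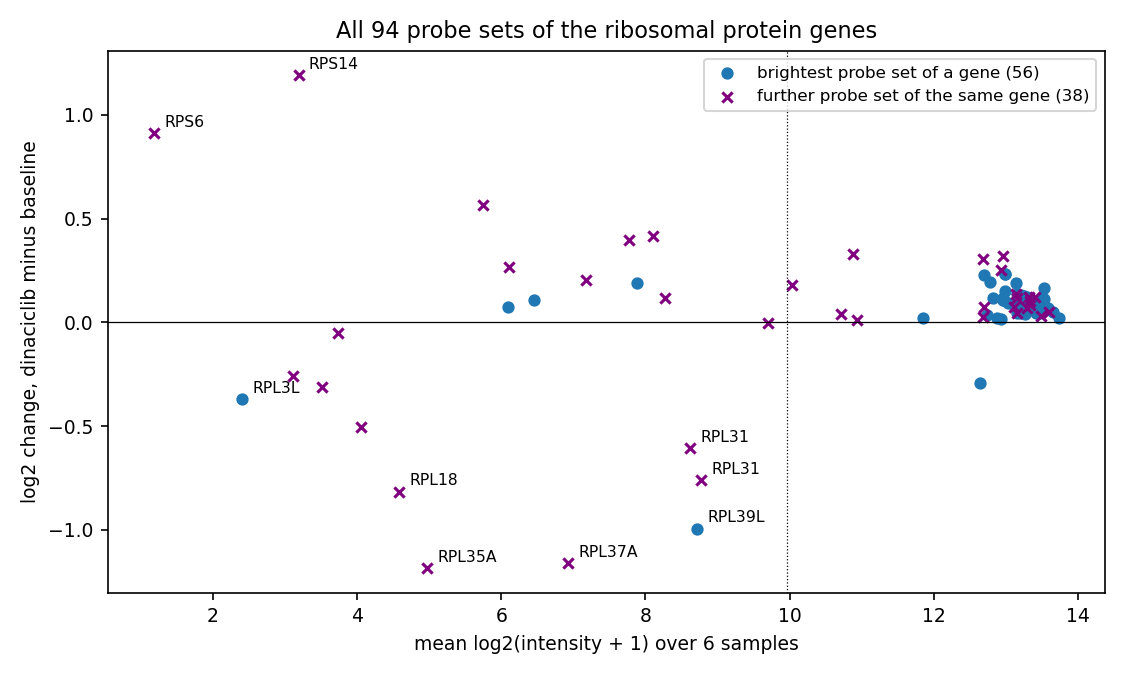
Log2 change, dinaciclib minus baseline, of all 94 probe sets of the 56 genes against mean log2(intensity + 1) over the 6 samples. The dotted line marks an intensity of 1000: to its right changes lie between -0.29 and 0.33, to its left between -1.18 and 1.19.

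Genes that work with these proteins were described from lists. FAU, a ribosomal protein made as a fusion, read 8060, 9408 and 9318 after dinaciclib, against 6645, 8647 and 8687 at baseline, a log2 change of 0.17 with an interval from -0.32 to 0.65, inside the core band. Of 20 measured translation factors and other transcripts known to carry a pyrimidine tract, 0 passed by limma (1, EIF4B, at an unadjusted p under 0.05), where 20.0% of all genes passed and 34.0% had such a p, and their median change was 0.06. EEF1A1, the elongation factor that brings aminoacyl-tRNA to the ribosome, changed by 0.04 (standard error 0.18) and EIF4B, a helicase cofactor of initiation, by 0.67 (standard error 0.26, limma, Benjamini-Hochberg adjusted p = 0.134).

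Chaperones and assembly factors of the ribosome moved both ways. Of 21 measured, 5 rose, 4 fell and 12 did not pass (limma, Benjamini-Hochberg), with a median change of 0.09, against 3.54% raised and 16.4% lowered among all genes. NMD3, the export adaptor of the large subunit, read 671, 738 and 1066 after dinaciclib, against 202, 224 and 222 at baseline, and rose by 1.90 on the log2 scale (standard error 0.23, limma adjusted p = 0.00515). NUFIP1, which acts in assembly of small nucleolar ribonucleoproteins, rose by 1.83 (standard error 0.26, limma adjusted p = 0.00702). MRTO4, which assembles the stalk, fell by 1.23 (standard error 0.20, limma adjusted p = 0.0111) and HEATR3, which carries RPL5 into the nucleus, fell by 0.98 (standard error 0.24, limma adjusted p = 0.0350). The groups did not overlap for these 4 genes, where 9.36% of all genes lay wholly higher and 30.7% wholly lower after dinaciclib. NMD3 and NUFIP1 passed in all 6 fits that left out 1 sample, MRTO4 in 5 (not without baseline 5), and HEATR3 in 1 (without baseline E). The change of NUFIP1 was 1.07 with the mean of its probe sets, and that of MRTO4 was -0.77 under array median centring, both still called. HEATR3 was not called under array median centring (-0.53, limma adjusted p = 0.0555), with control probe set centring (-1.06, limma adjusted p = 0.0586) or in the numbered samples (-1.14, limma adjusted p = 0.0563).

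Mitochondrial ribosomal protein genes, whose products build the ribosome inside mitochondria, spread far more widely than the core. Of 48, 1 rose, 6 fell and 41 did not pass (limma, Benjamini-Hochberg), against 3.54% raised and 16.4% lowered among all genes. They had a median change of -0.21, an SD of 0.59 against 0.05 in the core, and a range of -1.72 to 1.13. MRPL17 read 474, 582 and 456 after dinaciclib, against 1244, 2023 and 1810 at baseline, and fell by 1.72 (standard error 0.25, limma adjusted p = 0.0077), also in all 6 fits that left out 1 sample. MRPL49 fell by 1.22 (standard error 0.33, limma adjusted p = 0.0499), a call that held only without baseline E among those 6 fits and was lost under array median centring (-0.77, limma adjusted p = 0.0910) and with the mean of probe sets (limma adjusted p = 0.0511). MRPS30 rose by 1.13 (standard error 0.23, limma adjusted p = 0.0191), a call lost without baseline 5, dinaciclib 4 or dinaciclib 5, with control probe set centring (limma adjusted p = 0.0561) and in the numbered samples (limma adjusted p = 0.0568). The mitochondrial genes were dimmer than the core, with a median level of 9.88 log2 units against 13.2, and the difference in spread between the lists was not tested.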

How the data were processed

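The authors deposited 1 intensity per probe set and array for 22277 probe sets on 6 single-channel, biotin-labelled arrays, and the values show a linear scale without a common median. The sources used here do not give how probes were summarised. Symbols came from the platform annotation, checked against RefSeq gene identifiers, with 0 updates. Without the 62 control probe sets, and taking for a gene the probe set with its highest mean, there were 11963 genes and, with probe sets lacking a single gene, 15114 rows. Values were tested as log2(value + 1), which understates changes of dim genes, with lmFit and eBayes of limma 3.58.1 (R 4.3.3), the group as the only term and Benjamini-Hochberg adjustment over all rows. Calls used an adjusted p under 0.05. Standard errors and intervals (95%) come from that fit. The number of arrays limits the precision.

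Members, lists and rules for named genes were chosen with earlier results of these data known. Values by sample are given for the 5 highest and 5 lowest changes, called genes, and the 3 brightest and 3 dimmest. They are also given for near copies and their partners, and for a fixed set. Of that set, RPL11, RPS6, RPS3 and RPL38 were measured alone, and RPL5 only on shared probe sets. RPLP0, RPSA and RPS27A were not among the symbols found in the annotation. In the other lists the 2 highest and 2 lowest called changes are named. EEF1A1, EIF4B, RPL27A, RPL31 and the dim RPL37A probe sets were named after their values were seen. Alternatives are given in the closing section. The steps were tested on simulated data. Promoters came from RefSeq. Figures used matplotlib 3.10.9 in Python 3.11.15.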

Additional observations from a re-analysis of the deposited data

How the results depend on the processing

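Of the 56 genes, 1 was called as reported, 2 after quantile normalization, 41 under array median centring, which also set their median change at 0.54, and 2 of 94 with every probe set tested, where the SD was 0.33. Leaving out 1 sample at a time gave 0 to 1 called, with 9.35% to 18% of all genes called against 20.0%. The share of all genes called was 11.8% in the numbered samples alone and 45.9% without dim genes. With the replicate block, possible only for samples 4 and 5, 0 of the 56 and 0% of all genes were called (limma; 1 of the 56 at an unadjusted p under 0.05), and 0 in the lists of chaperones and mitochondrial genes; RPL39L changed by -1.15 (limma adjusted p = 0.0936). Deviations of same-numbered samples correlated at 0.089 and 0.082, crossed numbers at 0.023 and -0.031, dinaciclib F with baseline E at 0.143, and nothing in the labels pairs them.

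Of transcripts with a pyrimidine tract, 0 as reported, 1 passed after quantile normalization, with a variance trend and without dim genes, and 10 under array median centring, which also called 1 ribosomal protein outside the names (FAU) and 1 near copy ending in L1 or Y1. Of chaperones, 9 as reported, 4 passed with control probe set centring and in the numbered samples, 14 with a variance trend and without dim genes, and 3 to 8 leaving out 1 sample. Of mitochondrial genes, 7 as reported, 15 passed after quantile normalization, 11 under array median centring, 16 with the letter against number covariate and with log2(value + 16), 3 in the numbered samples, 19 with a variance trend and without dim genes, 18 with arrays centred on the core median, and 1 to 15 leaving out 1 sample. The share of all genes called moved as well, against 20.0% as reported, to 22.3% after quantile normalization, 27.2% under array median centring, 15.3% with control probe set centring, 24.1% with the covariate, 28.0% with a variance trend, 27.8% with log2(value + 16) and 27.9% with core centring. The cause of these shifts was not tested. RPL39L, called as reported, kept its sign in every alternative run. Intensities near the floor limit RPL3L and the dimmest probe sets. RPL10L is limited by its within-group SD, 0.45 after dinaciclib and 0.33 at baseline.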

Other observations

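A further 57 probe sets name 1 of the 56 genes or of the 16 shared symbols together with other genes. The 45 with a mean intensity over 1000 had log2 changes of -0.25 to 0.26 and 0 calls, and the 12 dimmer ones ran from -1.39 to 1.90 with 4 calls (limma, every probe set tested on its own), where 17.9% of all named probe sets were called, 3.90% as raised and 14.0% as lowered. Among near copies with symbols ending in L1 or Y1, 2 of 4 listed genes were measured and neither passed. RPL26L1, a near copy of RPL26, read 2527, 3410 and 2955 in dinaciclib F, 4 and 5, against 1807, 2651 and 2568 in baseline E, 4 and 5, a log2 change of 0.35 (limma, Benjamini-Hochberg adjusted p = 0.381). The groups overlapped. RPS4Y1 was dim on all arrays, with a log2 change of -1.12 (limma, Benjamini-Hochberg adjusted p = 0.123).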
